A study of Mus musculus with 18 samples.

Results

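TBR1 belongs to the T-box family of transcription factors and is made by deep-layer neurons of the cerebral cortex. It is best known for its part in the identity of layer 6 corticothalamic neurons, which send axons to the thalamus. T-box factors bind DNA through a conserved domain, and chromatin immunoprecipitation followed by sequencing (ChIP-seq) maps such contacts as stretches of the genome where precipitated fragments pile up. The regions described here are those that recurred in every peak list of the TBR1 ChIP-seq. They number 10580 of the 34587 regions called in replicate 1 against input on chromosomes 1 to 19. A member is a region of that list that overlapped, by 1 base or more, a region of both replicate 2 lists, called against input and against a negative control. The peak calls themselves thus chose the members, so heights, folds and q-values are given as descriptions, with no test.

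The ChIP-seq part of the series holds 6 samples of cortex from wild-type CD1 mice, an outbred strain, at postnatal day 2. They are 2 samples with a TBR1 antibody, 2 inputs (chromatin without precipitation) and 2 negative controls. Both negative controls are titled IgG, but the antibody label of the second names a TBR1 blocking peptide. The tissue is whole cortex, so a region is an average over all its cell types, and binding in fewer cells and weaker binding per cell cannot be told apart. Whether replicates came from separate animals is not stated in the labels. The RNA samples of the series, from sorted neurons at postnatal day 5, were not used here, because the gene tables carry no positions and no annotation of mm9, the build of the regions, was at hand. For the same reason no member is assigned to a gene or shown as sequence.

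What the lists hold was checked before the members were described. MACS2, the peak caller named in the submitters' processing notes, gives a fold enrichment as the pileup at a summit plus 1, over a background plus 1. In every list the fold values formed an even ladder, which is what whole reads over 1 constant background give. The step was 0.175 per read in replicate 1 and 0.181 in replicate 2, or backgrounds of 4.72 and 4.52 reads per position. All 39756 summits of replicate 1 and all 43517 of replicate 2 against input fell on whole reads, within 0.01 of a read. So each fold could be turned back into a height, the number of extended reads at the summit, and no region carried a control level of its own.

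The replicate 1 list named for the negative control was equal to the list named for input in all 39756 rows, in every column but the peak name. The 4 lists therefore amount to 3. The replicate 2 list against the negative control differed from the one against input, with 10893 regions in place of 37858 on chromosomes 1 to 19. Yet both held the same ChIP signal. At 8953 summits placed at the same base in both, the second fold was 0.771 times the first plus 0.229, with no summit more than 1.44e-05 off that line. Such a line results when the replicate 2 reads are scaled by 0.379 and set against a constant background scaled by the same factor, 1.71 reads. In the unscaled reads of that library, the lowest summit stood at 14 in the list against input and at 24 in the list against the negative control. Presence in the second list thus reports the height and breadth of the replicate 2 signal, and holds no measurement of the control at the region itself.

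**Figure D1:**
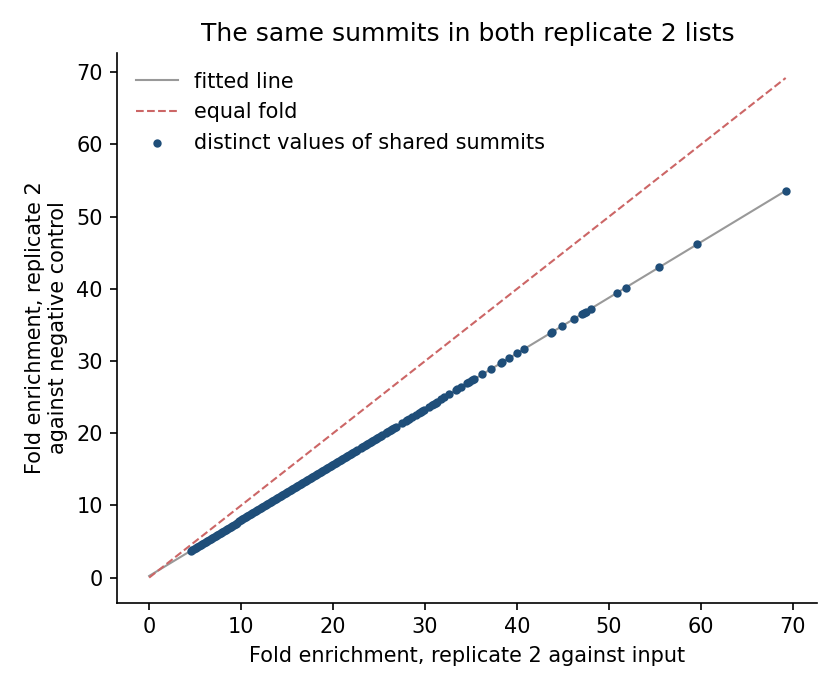
Fold enrichment of the same summits in the replicate 2 list against input (x axis) and against the negative control (y axis), as distinct pairs of values, with the fitted line (grey) and the line of equal fold (dashed). All 8953 shared summits lie on a single line with a slope of 0.771.

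Replicate agreement was described on replicate 1 regions of 50 reads or more. All of them had an overlap in replicate 2, so that none was left out for disagreeing. The log2 ratio of heights, each over its background, was compared with the spread that counting alone would give. In the 479 regions with 80 reads or more the SD was 0.17 against a counting SD of 0.20. It was 0.22 against 0.25 in the 782 regions from 60 reads to under 80, and 0.25 against 0.28 in the 1063 regions from 50 to under 60. The SD was thus below the counting SD in each of these 3 classes. Independent single counts would not spread less than counting gives, so the counting SD does not apply exactly. No conclusion on variation between replicates is drawn from it. The replicates are counted here as 1 sample, and values are given for each replicate without an SD over them. A height is the highest value among the called summits of a region, so its counting spread need not be exactly that of a single count. It need not be the maximum over the region. The lowest replicate 2 height of a region with a negative-control overlap was 21 reads, and the lowest summit of the negative-control list was 24. Lower regions, many of them missing from one list, were not judged this way.

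Members stood at a median height of 37 reads in replicate 1 and 38 in replicate 2. Their quartiles were 31 and 47 reads in replicate 1 and 33 and 47 in replicate 2. As the authors' fold enrichment, the medians were 6.65, 7.07 and, against the negative control, 5.68. The median −log10 q was 17.9 in replicate 1, 19.4 in replicate 2 and 6.01 against the negative control. The 18562 regions that were replicated against input but missing from the negative-control list were lower, at medians of 25 and 24 reads, and the 5445 regions of replicate 1 with no replicate 2 overlap were lowest, at 21 reads. These steps follow from the rule, which takes tall replicate 2 regions. Not all of the 18562 lacked a tall partner, since replicate 2 heights among them reached 153 reads. Such a partner was listed against the negative control at a part that the replicate 1 region did not overlap.

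Members made up 30.6% of the replicate 1 regions, and that share rose with the height in replicate 1, a library whose heights the rule did not use beyond the call itself. Of 9600 regions with 20 to 24 reads, 5.64% were members. The share was 43.1% of 4823 regions with 30 to 34 reads, 89.9% of 1003 with 45 to 49 reads and 100% of 479 with 80 or more. Overlap with the replicate 2 list against input came earlier on the scale, at 73.5% for 20 to 24 reads and 96.7% for 30 to 34 reads. In replicate 2, where 27.9% of the regions against input were also listed against the negative control, the share first passed 50% at 32 reads. All 2980 replicate 2 regions above 45 reads were in both lists. Only 26 of the 10893 negative-control regions had no partner in replicate 1.

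**Figure D2:**
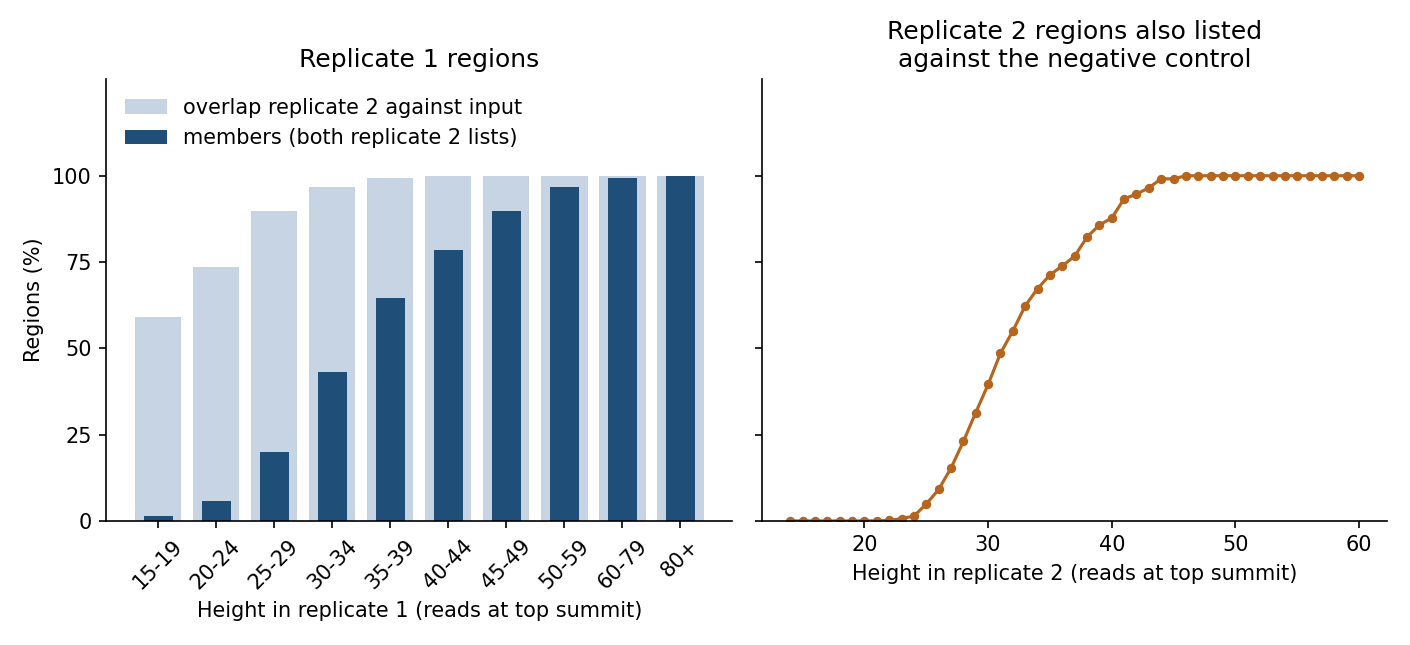
Left, percent of replicate 1 regions that overlapped the replicate 2 list against input (pale bars) and that were members (dark bars), by height in replicate 1. Right, percent of replicate 2 regions that were also listed against the negative control, by height in replicate 2 up to 60 reads; the member share runs from 1.56% at 15 to 19 reads to 100% at 80 or more.

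Among members, heights in the replicates went together, with a Spearman rho of 0.76 and a Pearson r of 0.85 on log2 heights over 10580 regions. The points share their genome positions and were chosen by both libraries, so these are descriptions. A replicate 2 region that overlapped several members could be paired with each of them, so the 10580 pairs are not all separate. The median log2 ratio of replicate 2 to replicate 1, each over its background, was 0.11, with an SD of 0.28. In 521 members, or 4.92%, the heights differed by over 1.5 times: 488 were higher in replicate 2, the library whose height the rule selected, and 33 in replicate 1. Some of the 488 were paired with the summit of a neighbour. The member chr1:62263037-62263617 had 37 and 67 reads, and chr1:62262188-62262939 beside it had 68 and 67. How many were of this kind was not counted. No member was over 2 times higher in replicate 1, and 25 were over 2 times higher in replicate 2.

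Part of that excess lay in regions whose top summits were different places. In 12 of the 25 the summits were more than 500 bases apart, and among the 8175 members with top summits within 100 bases only 6 differed by over 2 times. The member furthest apart, chosen after its values were seen, was chr6:47596554-47597422. It had 31 reads in replicate 1, and its replicate 2 region, 5101 bases wide, reached 179 reads at a summit 3945 bases away. The overlapping region of the replicate 2 list against the negative control had a fold of 4.98, which stands for 33 reads. The values 31 and 179 thus belong to different places.

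**Figure D3:**
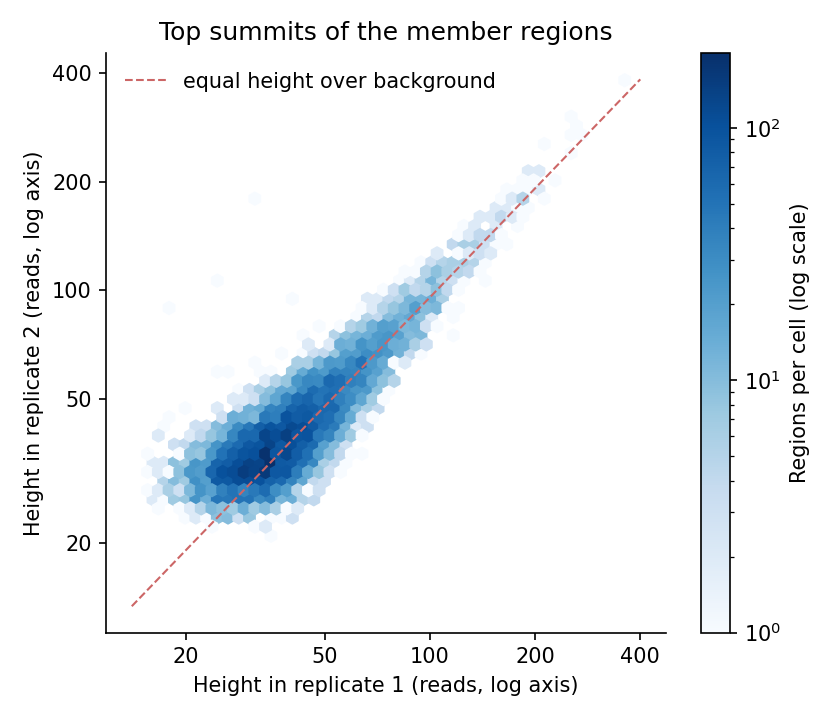
Height of the top summit in replicate 1 (x axis) and replicate 2 (y axis) for the 10580 members, both in reads on log axes, shaded by the number of regions per cell; the dashed line marks equal height over background. Points narrow around the line as height grows, and the few isolated points above it include the region with 31 and 179 reads.

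Top summits lay close together in the replicates, and no distance expected from overlap and width alone was computed. The median distance between the replicate 1 and replicate 2 top summits was 39 bases, with quartiles of 16 and 92 bases. It was 50 bases or less in 58.2% of members and over 500 bases in 361. In replicated regions outside the negative-control list the median distance was 57 bases. Where a member had a single summit, as 8279 did, it sat near the middle, at a median of 49.8% of the width from the left edge and quartiles of 45.1% and 54.7%.

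The tallest members mostly had a single summit and were about as wide as other members, at a median of 940.5 bases for the first 12 and 830.5 bases for the 100 tallest, against 866 bases over all members. Of the 12 with the highest values of the smallest fold over the 3 lists, 11 had 1 summit, and their top summits differed by at most 26 bases between replicates. First was chr5:147378757-147379845, 1089 bases wide, with 361 reads in replicate 1 and 381 in replicate 2, or folds of 63.3 and 69.2, and 53.6 against the negative control. It was the highest region of all 3 lists.

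Chromosome 5 held 4 of these 12. The second was chr5:146958594-146959774, with 260 and 305 reads in replicates 1 and 2. The pair chr5:138993382-138994190 and chr5:139012003-139013113 lay close together, with 212 and 215 reads in the first and 253 and 260 in the second. In each of these, replicate 2 was the higher by a log2 ratio of 0.08 to 0.29.

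The third by this order, chr11:102975893-102979186, was the exception in shape. It spanned 3294 bases and 3 summits, with 261 reads in replicate 1 and 285 in replicate 2. It was the one region of the 12 with more than 1 summit. The region chr2:117264403-117265320 had 270 and 264 reads, and chr3:84963431-84964503 had 246 and 241. These 2 were nearly level between replicates, at log2 ratios of 0.03 each.

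On chromosome 18, chr18:10258061-10258765 was among the narrowest of the 12 at 705 bases, and had 214 reads in replicate 1 and 261 in replicate 2, the widest replicate gap of the set at a log2 ratio of 0.35. The region chr13:13638918-13639717 had 190 and 215 reads, and chr7:49717407-49718369 had 196 and 211. The set closed with chr9:61059297-61060078, at 201 and 210 reads, and chr12:14390069-14390773, at 186 and 204. Across the 12, heights in replicate 1 were 186 to 361 reads and widths 705 to 3294 bases. Beyond them, 92 of the 100 tallest members by replicate 1 height had a single summit, and 215 members reached 100 reads or more.

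A typical member was far lower. At the median height of its chromosome, chr19:4037618-4038374 had 37 reads in both replicates over 757 bases, and chr2:6243160-6244593 had 38 in both. The region chr10:5913052-5914619 had 37 and 36 reads, with 3 summits. On chromosome 1 the region at the median, chr1:23959836-23960317, had 39 reads in replicate 1. Its replicate 2 partner was broader and reached 95 reads at a summit 794 bases away. The next member, chr1:23960521-23961177, had 95 reads in both replicates, so the values 39 and 95 do not compare the same place.

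The edge of the rule was drawn on the negative-control list. The lowest −log10 q of a member was 2.24, in that list, and 278 members shared it. The first of these in genome order were chr1:22812121-22813035, with 25 reads in each replicate, chr1:31005560-31007233, with 25 and 24, and chr1:43220453-43221227, with 23 and 26. Just outside stood taller but narrower regions. The region chr6:62667051-62667576 had 45 reads in each replicate over 526 bases and was not listed against the negative control. Likewise outside were chr4:48956111-48956647, with 46 and 43 reads, and chr9:11954966-11955527, with 56 and 43. The 3 inside had replicate 2 widths of 849 to 2297 bases and the 3 outside 506 to 526, and no list held a region under 350 bases.

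Members were also broader. This too follows from the rule in part, since a region of the negative-control list needs a stretch of signal above a higher cutoff in replicate 2, and no test is given. Members had a median width of 866 bases in replicate 1 and 924 in replicate 2, against 520 and 546 bases in replicated regions outside the negative-control list. Regions of replicate 1 alone had a median of 403 bases. A gap in width was also present at like height, where the rule still selects on breadth in replicate 2. With 30 to 34 reads in replicate 1, 2081 members had a median width of 961 bases and 2581 replicated non-members one of 564 bases. Their median replicate 2 heights still differed, at 34 and 27 reads. With 30 to 34 reads in replicate 2 the median replicate 1 widths were 957 bases in 2526 members and 525 bases in 2166 non-members, and median replicate 1 heights were 32 and 29 reads. In the list against the negative control the members were narrower, at a median of 501.5 bases, since the same signal was read there at a higher cutoff.

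**Figure D4:**
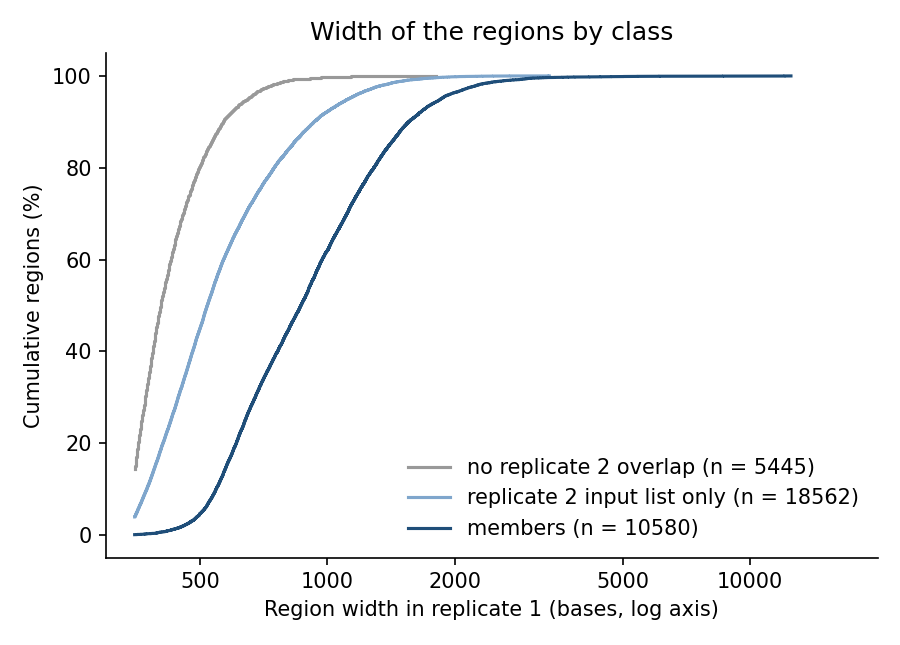
Cumulative percent of regions (y axis) by width in replicate 1 (x axis, bases, log axis) for members, for regions replicated against input only and for regions without a replicate 2 overlap. The median moves from 403 to 520 to 866 bases.

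Members with several summits were broad rather than tall. Of all members, 2301 (21.7%) had 2 or more summits, against 7.92% of replicated non-members and 1.32% of regions without a replicate 2 overlap. Summit number went with width, and the rule takes broad regions, so this contrast too follows from the rule in part. The member share was 10.6% when an overlap of at least 50% of both regions was required, and 14.9% with top summits within 100 bases. No matching shares of non-members are given for these settings. Median widths were 754 bases for members with 1 summit, 1369 with 2 and 2070.5 with 3 or more. Their median replicate 1 heights were 38, 34 and 36 reads in that order. Over all members, height and width in replicate 1 were nearly unrelated, at a Spearman rho of -0.077, given as a description. The rule selects on height and breadth in replicate 2 together, so this value holds for the selected set only. Neighbouring summits within a member were a median of 586 bases apart, with quartiles of 477 and 739 bases.

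Most members stood alone. With a gap of under 10000 bases as the limit, 9066 members had no other within reach, and 1514 fell into 703 clusters. Of these clusters 634 were pairs and 55 were triplets, 11 held 4 to 6 members and 3 held 10 or more. The median gap to the next member was 109.7 kilobases, and 7.68% of gaps were under 10000 bases. That share was 4.20% with an overlap of at least 50% of both regions, 4.89% with a −log10 q of at least 5 and 4.93% with a fold of at least 5. Among all replicate 1 regions, which are more numerous, the median gap was 33.4 kilobases and 24.1% were that short.

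The 3 largest clusters differed from the rest in form. The first, chr11:3031627-3097007, held 12 members that covered 92.6% of 65.4 kilobases, with 82 summits. A second, chr2:77714479-77789728, held 11 members with 95 summits over 75.3 kilobases, and chr2:77811355-77864966, beyond a short gap, held 10 members with 36 summits and covered 54.2% of its span. In replicate 1 their median heights were 42.5, 38 and 38 reads, near the 37 of members elsewhere, so by median they stood out in breadth and not in height. Their highest replicate 1 heights were 59, 146 and 62 reads in that order, against a 95th percentile of 77 over all members.

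These clusters also held the extremes of width and summit number. The widest member, chr2:77768187-77780669, spanned 12483 bases with 19 summits, and reached 116 reads in replicate 1 and 103 in replicate 2. Next came chr2:77750331-77762380, at 12050 bases and 18 summits, with 42 and 37 reads, and chr11:3059421-3068971, at 9551 bases and 13 summits, with 49 and 45 reads. By number of summits the third was chr11:3039925-3048915, with 15. Of the 14 members over 5 kilobases wide, 11 lay in the 3 clusters, as did 8 of the 9 with 8 or more summits. Input reads at these places were not analysed here.

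By chromosome the member share moved little around the 30.6% of all replicate 1 regions, from 27.7% on chromosome 14 and 27.9% on chromosome 13 to 33.0% on chromosome 19 and 33.3% on chromosome 11. Median heights of members were 36 to 39 reads on every chromosome. Along chromosomes the spread was wide: 2198 windows of 1000000 bases held a member, with a median of 4 in each. The fullest were neighbours on chromosome 10. The window from 80000001 to 81000000 held 31 members of 68 replicate 1 regions, and the one from 79000001 to 80000000 held 27 of 71. Among the 10 windows with most members, the highest shares were in chr7:134000001-135000000, with 24 of 39 regions, and chr17:35000001-36000000, with 21 of 35.

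**Figure D5:**
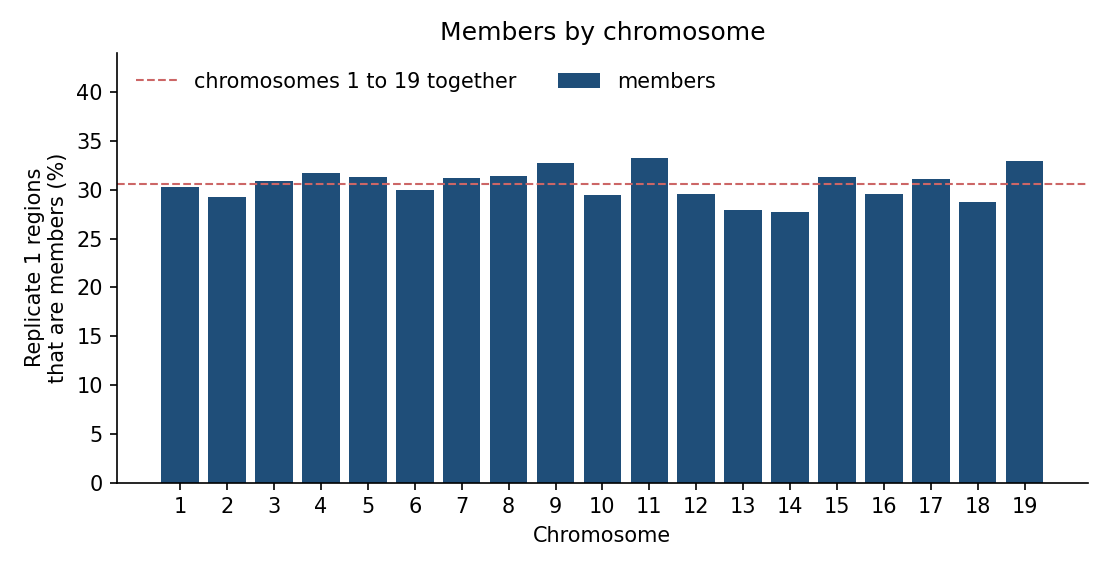
Percent of replicate 1 regions that were members (y axis) on each of chromosomes 1 to 19 (bars), with the share over all of them (dashed line, 30.6%). Bars run from 27.7% on chromosome 14 to 33.3% on chromosome 11.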

How the data were processed

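For the ChIP-seq samples the submitters' processing notes name BWA 0.7.16a, MACS2 2.1.0, Trim Galore 0.4.2 and the build mm9, and no parameters. Each peak name, as deposited by the authors, gives the replicate and its control and says that no fragment model was built. Each row deposited by the authors is a summit with a score (the −log10 q times 10, cut to a whole number), a fold enrichment, a −log10 p and a −log10 q. Sequencing depth per library is not given in these lists.

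Rows with the same chromosome, start and end were merged, and the summit with the highest fold stood for the region. Where several replicate 2 regions overlapped, the one with the highest fold was taken, and 1 replicate 2 region could stand for several members. Heights are the fold times the background plus 1, less 1. In the lists against input, a Poisson tail of that height gave the deposited −log10 p within 7.92e-05% where it could be computed. The replicate 2 list against the negative control was not checked this way. Overlap, merging and height recovery were tested on simulated lists with Python 3.11.15, pandas 2.3.3 and scipy 1.17.1. Coordinates count from 1.

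Named regions are the 12 highest by smallest fold, the 3 widest, the 3 with most summits, 3 just inside and 3 just outside the rule, and 1 at the median on each of chromosomes 1, 2, 10 and 19. The members, lists and tests were chosen with earlier results of these data known. Motif searches, links to genes and the RNA comparison were not run, for want of an mm9 genome and annotation.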

Additional observations from a re-analysis of the deposited data

How the results depend on the processing

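The number of members stayed within 1.5 times of 10580 in 5 of 8 alternatives, not all of which could change it. Replicate 2 coordinates (10526) and leaving out replicate 1 (10545) hardly could, since 99.8% of the negative-control regions had a replicate 1 partner. The count was 7422 with a reciprocal overlap of at least 50% of both regions and 8088 with top summits within 100 bases. It was 6864 with a −log10 q of at least 5 in each list and 6979 with a fold of at least 5, and it was 10545 to 34587 when one replicate was left out. The highest value is that without replicate 2: both replicate 1 lists hold the same regions, so every one qualifies. As a share of the regions counted, 30.6% became 21.5% with a reciprocal overlap of at least 50% of both regions, 23.4% with top summits within 100 bases, 23.0% with the q limit, 45.3% with the fold limit and 27.8% in replicate 2 coordinates, and it was 27.9% to 100% without one replicate. Requiring the replicate 1 negative-control list as well changed nothing and could not, since that list equals the one against input. The median distance between top summits, 39 bases, was 35 bases for the nearest pair of summits and 31 bases with a reciprocal overlap of at least 50%. Median folds averaged over the summits of a region were 6.47 and 6.89. No paired analysis was possible because no result comes from a test between groups. Alternatives on motifs, gene starts and linked genes were not run.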

Other observations

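Regions on chromosome X were outside the rule. Of 367 regions there in replicate 1, 52 (14.2%) overlapped both replicate 2 lists, against 30.6% on chromosomes 1 to 19, while overlap with the replicate 2 list against input was 79.02% against 84.3%. The median height of the chromosome X regions was 24 reads in replicate 1 and 22 in replicate 2, against 26 and 25 on chromosomes 1 to 19. No list held a region on chromosome Y, and 34 regions of replicate 1 lay on other sequences.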
